A study of Mus musculus with 6 samples.

Results

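The 10 genes described here control how a primary cilium is taken down and how the centriole beneath it is capped: Aurka, Nedd9, Hdac6, Plk1, Nek2, Kif24, Kif2a, Ccp110, Cep97 and Ttbk2. They were chosen by symbol, and each matched 1 of the 32061 gene rows of the count table. All 10 passed the filter on low counts, as did 13839 genes in all. RNA came from mouse biliary epithelial cells, the cells lining the bile ducts, in 3 samples labelled competent for primary cilia and 3 labelled depleted of them. The depleted cells had been given 4OHT, usually read as 4-hydroxytamoxifen, a drug that switches on tamoxifen-dependent Cre recombinase, and the competent cells had not. Both groups were grown from hand-picked ducts as organoids and then spread on collagen. The count table heads the competent columns WT and the depleted columns KO, without naming an allele, and strain, age and sex were not stated, and neither was the origin of replicates from separate cultures or animals, so each p-value reflects just the scatter among these 6 samples, which may be technical. Because 4OHT was given to every depleted sample and to no competent one, its effect and that of cilium loss cannot be told apart.

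A primary cilium grows from the older of the paired centrioles of a resting cell and is resorbed when the cell prepares to divide. Resorption is driven by the kinase Aurora A and its scaffold NEDD9, which act on the tubulin deacetylase HDAC6, together with the kinases PLK1 and NEK2 and the microtubule-depolymerising kinesins KIF2A and KIF24. Growth is held back by a cap of CP110 (gene Ccp110) and CEP97 on the centriole end, which the kinase TTBK2 helps to remove. In bile ducts the cilium reaches into the lumen and senses bile flow and composition.

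Competent libraries held between 32199606 and 36093068 counts, and depleted libraries between 26293486 and 36998935. No label says which gene was targeted. Wdr35, named here from knowledge of the study, had 1211, 1148 and 1200 raw counts in competent and 739, 914 and 925 in depleted samples. Once the libraries were scaled, this was a 1.19-fold fall in depleted samples (log2 change -0.25). Such whole-gene counts cannot tell whether an exon was lost. The 7 biliary markers lay between 7326 and 7639 CPM (the unit of counts scaled to library total) when summed in competent samples, and between 6273 and 6871 CPM in depleted ones. The 5 hepatocyte markers summed to 19.7 to 26.7 CPM and 15.4 to 17.4 CPM, with Cyp3a11 at 0. The 6 fibroblast markers (Col1a2 at 0) summed to 2.17 to 3.23 and 2.81 to 3.73 CPM, and the 4 endothelial markers to at most 0.416 CPM. The 5 leukocyte markers summed to 3.51 to 4.01 CPM in competent and 5.03 to 5.93 CPM in depleted samples, nearly all of it Cd68, with Ptprc at 0.0811 to 0.297 CPM over all 6 samples. The part of other cells in the results was not tested. In bulk RNA a change in the number of cells that express a gene and a change in RNA per cell cannot be told apart.

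Of the 10 genes, 6 were higher in depleted cells, 1 was lower and 3 did not pass an adjusted p below 0.05 (edgeR's quasi-likelihood test, Benjamini-Hochberg adjusted across the 13839 genes, the test behind every adjusted p below unless another is named). Over all genes tested, 34.9% were called higher, 34.3% lower and 69.2% in either direction, so calls were common in this comparison. With plain library-size scaling the calls over all genes shifted from 4832 higher and 4744 lower to 3836 and 5980, and those of the 10 genes were 5 and 1. The rises formed an upper group of Cep97, Kif24 and Nedd9, at 1.81-fold to 1.98-fold, and a lower group of Aurka, Ttbk2 and Kif2a, at 1.15-fold to 1.26-fold. A rise of more than 1.5-fold was called for 16.9% of all genes, and ordered by log2 change Cep97, Kif24 and Nedd9 stood at places 1068, 1320 and 1394 from the top of 13839. None of the 10 fell by more than 1.5-fold, which 11.6% of all genes did. The median log2 change of the 10 genes was 0.27 beside -0.0057 for all genes. It was 0.09 after removal of a trend of change with transcript length (all genes -0.000658) and 0.14 with library-size scaling (all genes -0.135). Samples of the groups did not overlap for 6 of the 10 genes, and for 72.5% of all genes.

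**Figure D1:**
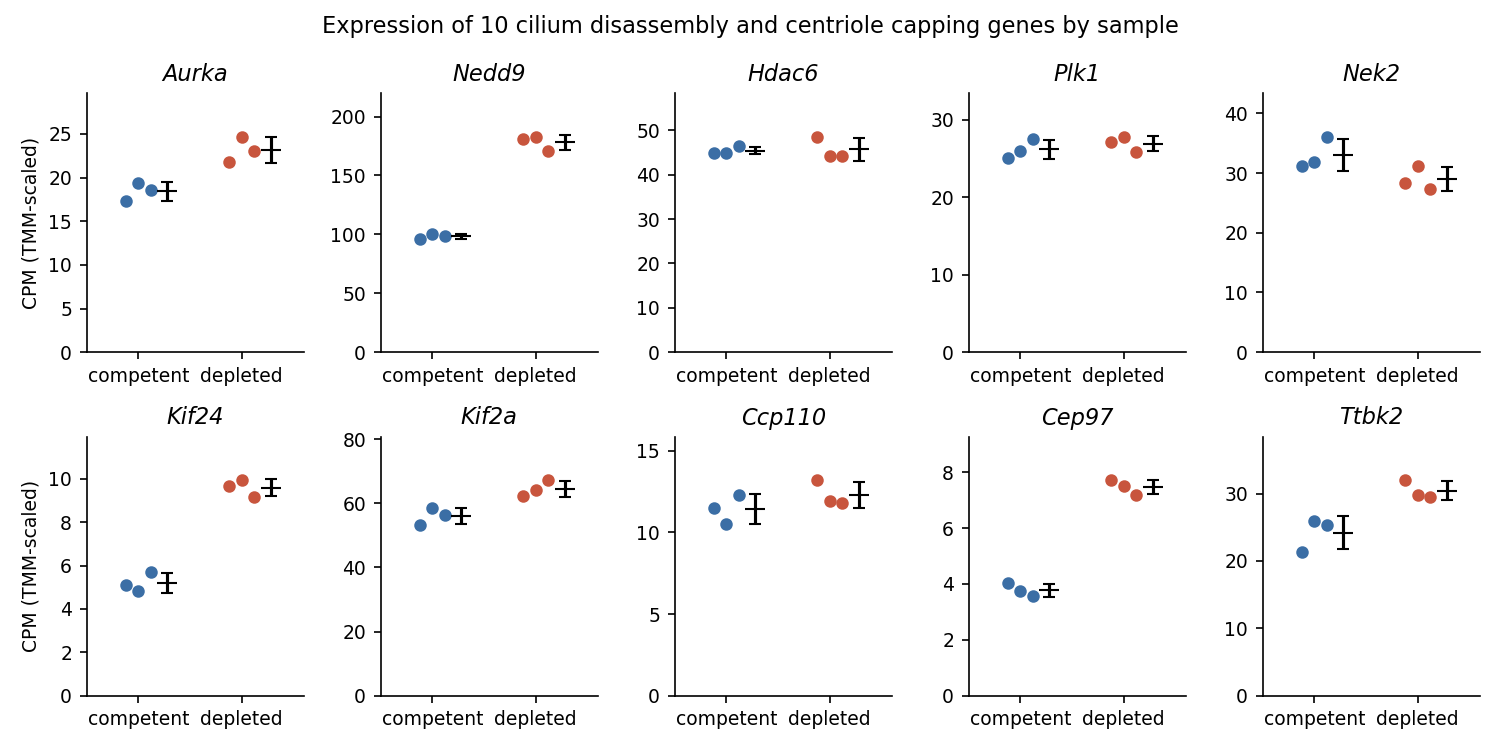
TMM-scaled CPM of each of the 10 genes (vertical axes from 0) in 3 competent samples (blue) and 3 depleted samples (red), with the mean and SD beside them in black. The groups stand far apart for Nedd9, Kif24 and Cep97, stand apart by less for Aurka, Kif2a and Ttbk2, and overlap for Hdac6, Plk1, Nek2 and Ccp110.

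In the Aurora A module the scaffold gene Nedd9 rose 1.81-fold, the kinase gene Aurka rose 1.26-fold and Hdac6 did not pass. Nedd9 (ENSMUSG00000021365; GRCm38 chromosome 13, 41309581 to 41487362, minus strand), whose product binds and activates Aurora A, had 95.8, 100.4 and 98.5 CPM (here and below scaled by TMM) in competent samples. In depleted samples it had 181, 183 and 171 CPM. Every depleted sample was thus above every competent one by a margin far wider than the spread within a group. The means were 98.2 ± 2.33 and 178 ± 6.47 CPM (SD, n = 3 each), a log2 change of 0.86 (SE 0.043, adjusted p = 1.23e-09). The smallest standard error of the 10 genes belonged to Nedd9, which also had the most counts, 3263 to 6033 per sample.

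Aurka (ENSMUSG00000027496; chromosome 2, 172356190 to 172370535, minus strand), which encodes Aurora A itself, had 17.3, 19.4 and 18.6 CPM in competent and 21.8, 24.7 and 23.0 CPM in depleted samples. The groups did not overlap, although the gap between them was narrow. The log2 change was 0.33 (SE 0.0683, 95% interval 0.19 to 0.48, adjusted p = 0.000644), a rise of 1.26-fold. After removal of the length trend the value was 0.51 for Aurka, whose longest transcript has 1905 bases. Within a sample, Nedd9 had 5.55, 5.18 and 5.30 counts per Aurka count in competent cells and 8.28, 7.40 and 7.44 in depleted cells, a ratio that does not depend on library scaling.

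Hdac6 (ENSMUSG00000031161; chromosome X, 7930120 to 7947889, minus strand), which encodes the deacetylase acted on by Aurora A, had 44.9, 45.0 and 46.5 CPM in competent and 48.6, 44.3 and 44.2 CPM in depleted samples. The highest and the lowest values both lay in the depleted group, and the 95% interval of the log2 change was -0.11 to 0.12 (adjusted p = 0.939). Once the length trend was removed, Hdac6 was called lower, at a log2 change of -0.16 (adjusted p = 0.00841).

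Of the mitotic kinase genes, Plk1 did not pass and Nek2 was called 1.14-fold lower. Plk1 (ENSMUSG00000030867; chromosome 7, 122159439 to 122169873, plus strand), whose product acts at the cilium base before mitosis, had 25, 26 and 27.5 CPM in competent and 27.1, 27.8 and 25.8 CPM in depleted samples. The groups overlapped, with a 95% interval of -0.09 to 0.16 for the log2 change (adjusted p = 0.587). Once the length trend was removed, Plk1 was called higher, at a log2 change of 0.15 (adjusted p = 0.0381). Nek2 (ENSMUSG00000026622; chromosome 1, 191821444 to 191833050, plus strand), which encodes a centrosomal kinase that phosphorylates KIF24, had 31.1, 31.9 and 36.1 CPM in competent and 28.3, 31.2 and 27.3 CPM in depleted samples. Nek2 was called lower, at a log2 change of -0.19 (SE 0.0693, adjusted p = 0.0245), although depleted replicate 2 lay above competent replicate 1. The call was lost without competent replicate 3 (log2 change -0.13, adjusted p = 0.119), without depleted replicate 1 (-0.18, adjusted p = 0.069) and without depleted replicate 3 (-0.15, adjusted p = 0.103).

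The kinesin genes Kif24 and Kif2a rose 1.84-fold and 1.15-fold. Kif24 (ENSMUSG00000028438; chromosome 4, 41390745 to 41464887, minus strand), a kinesin that binds CP110 and remodels microtubules at the centriole, had 5.11, 4.81 and 5.71 CPM in competent and 9.67, 9.94 and 9.17 CPM in depleted samples. These values rest on 170 to 215 counts per competent and 244 to 324 per depleted sample. The groups were widely separated, at a log2 change of 0.88 (SE 0.101, adjusted p = 3.67e-06) or 1.84-fold. Kif2a (ENSMUSG00000021693; chromosome 13, 106958996 to 107022126, minus strand), the depolymerase that PLK1 activates at the cilium base, had 53.3, 58.5 and 56.3 CPM in competent and 62.2, 64.2 and 67.2 CPM in depleted samples. The groups did not overlap, and the log2 change was 0.21 (SE 0.0504, adjusted p = 0.00255). This call was lost with plain library-size scaling (log2 change 0.08, adjusted p = 0.178) and again on removal of the length trend (0.03, adjusted p = 0.614). Exons of Dimt1 on the opposite strand cover 19.2% of the Kif2a exon length, and although the library kit keeps strand, how the counting used it is not stated in the labels. Kif24 counts per Kif2a count were 0.0959, 0.0822 and 0.101 in competent and 0.155, 0.155 and 0.136 in depleted samples.

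Of the genes that form the cap or take it off, Cep97 rose most and Ccp110 did not pass. Cep97 (ENSMUSG00000022604; chromosome 16, 55899888 to 55934855, minus strand), whose product recruits CP110 to the centriole end, had 4.02, 3.76 and 3.56 CPM in competent and 7.72, 7.51 and 7.19 CPM in depleted samples. The lowest depleted value was well above the highest competent one, at a log2 change of 0.98 (SE 0.107, adjusted p = 2.25e-06) or 1.98-fold. Its counts were low, 133 to 137 per competent and 195 to 254 per depleted sample, and its standard error was the widest of the 10 genes. Ccp110 (ENSMUSG00000033904; chromosome 7, 118712552 to 118737024, plus strand), which encodes the cap protein itself, had 11.5, 10.5 and 12.3 CPM in competent and 13.2, 11.9 and 11.8 CPM in depleted samples. The groups overlapped, and the 95% interval of the log2 change was -0.08 to 0.29 (adjusted p = 0.306), which does not show that its level was the same in both groups. For each Ccp110 count there were 0.35, 0.358 and 0.289 Cep97 counts in competent samples. In depleted samples there were 0.586, 0.629 and 0.609. This pair was chosen after the values were seen, with Cep97 called higher and Ccp110 not. Separation of its ratio between the groups was thus nearly fixed by the choice.

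The promoters of the capping genes are shown because Cep97 and Kif24 were both called higher by a similar fold while their partner gene Ccp110 was not. The sequences are from RefSeq (GRCm38.p6), read on the strand of the gene, and lie within the 250 bases before the RefSeq start. Bases inside a GENCODE exon were left out. Capitals mark CCAAT on either strand, the box bound by the factor NF-Y.
Cep97, minus strand, chr16:55934856-55935098: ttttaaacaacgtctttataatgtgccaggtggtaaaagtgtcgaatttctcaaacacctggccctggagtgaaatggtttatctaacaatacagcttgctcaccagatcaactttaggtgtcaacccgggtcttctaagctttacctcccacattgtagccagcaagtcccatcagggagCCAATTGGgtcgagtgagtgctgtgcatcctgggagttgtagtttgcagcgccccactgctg
Kif24, minus strand, chr4:41464888-41465098: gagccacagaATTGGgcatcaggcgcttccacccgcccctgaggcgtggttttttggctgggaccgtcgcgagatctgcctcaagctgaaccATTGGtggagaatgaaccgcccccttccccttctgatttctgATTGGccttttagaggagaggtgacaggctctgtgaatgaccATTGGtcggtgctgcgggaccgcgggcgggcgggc
Ccp110, plus strand, chr7:118712293-118712542: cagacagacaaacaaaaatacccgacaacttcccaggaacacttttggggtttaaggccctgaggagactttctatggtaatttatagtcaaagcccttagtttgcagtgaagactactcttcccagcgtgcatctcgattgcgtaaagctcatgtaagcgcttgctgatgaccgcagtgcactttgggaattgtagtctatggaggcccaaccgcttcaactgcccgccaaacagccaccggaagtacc
The Kif24 window holds 4 separate matches, the Cep97 window 2 that overlap, and the Ccp110 window 0.

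All 10 genes had RefSeq windows, 12 in total, of which the 2 of Ttbk2 overlap each other, as do the 2 of Kif2a. Of these 12, 9 held CCAAT, beside 33.8% of all 32851 windows in the table, which cover many kinds of genes. The 9 windows belonged to genes that rose (Kif24, Cep97, Nedd9, Aurka, Ttbk2), to Nek2, which was called lower, and to Plk1 and Hdac6, which did not pass. Kif2a, which also rose, and Ccp110, which did not pass, held none. Whether CCAAT bears on these calls was not tested. The cell cycle element TTTGAA was found for Hdac6 alone, in 1 of 12 windows against 16.0% of all. Bases after the start and other forms of this element were not searched, so its absence from a window does not show that a gene lacks it. AP-1 (TGANTCA), CRE (TGACGTCA), EGR (GCGTGGGCG) and E2F (TTTCCCGC or TTTGGCGC) motifs, the CArG box and the X-box bound by RFX factors matched 0 of the 12 windows on either strand. Of all windows, 6.75% held AP-1, 1.55% CRE, 0.536% EGR, 0.895% and 0.417% the respective E2F forms, 1.47% the CArG box and 1.2% the X-box.

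Ttbk2 (ENSMUSG00000090100; chromosome 2, 120732816 to 120850604, minus strand), the kinase gene needed for cap removal, had 21.4, 25.9 and 25.3 CPM in competent and 32.0, 29.8 and 29.5 CPM in depleted samples. The groups did not overlap, and the log2 change was 0.33 (SE 0.0721, adjusted p = 0.0012). Ttbk2 has the longest transcript of the 10, 11152 bases, and with the length trend removed its log2 change was -0.0017 (adjusted p = 0.981). Exons of Cdan1 on the same strand cover 29.9% of the Ttbk2 exon length, and the handling of reads shared by overlapping genes is not stated in the labels.

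The ratio of counts within a sample was compared for 5 pairs of the 10 genes, chosen after the values were seen. Separation of these ratios between the groups was therefore partly fixed by the choice. The mean log2 ratio differed between groups by 0.88 for Cep97 to Ccp110, 0.78 for Kif24 to Ccp110, 0.68 for Kif24 to Kif2a and 0.53 for Nedd9 to Aurka. All 3 depleted samples were above all 3 competent samples in each of these 4 ratios, which gives p = 0.1 in a two-sided exact permutation test, the smallest value that 3 against 3 allows (0.125 adjusted over the 5 pairs). The Ttbk2 to Ccp110 ratio overlapped between groups, with a difference of 0.22 (exact permutation p = 0.2, adjusted 0.2). With the length trend removed the difference for Nedd9 to Aurka was 0.20.

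**Figure D2:**
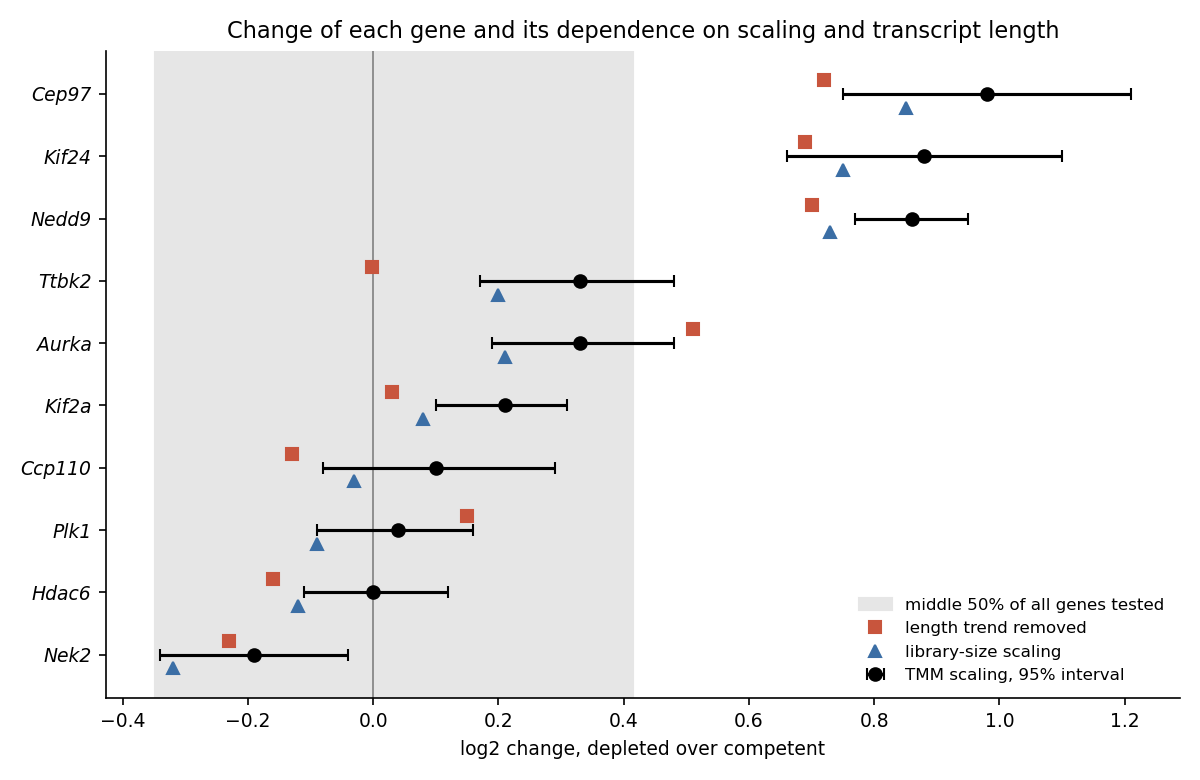
Log2 change (depleted over competent) of each gene with its 95% interval under TMM scaling (black), with the length trend removed (red squares) and with plain library-size scaling (blue triangles); the grey band is the interquartile range of all genes tested. Cep97, Kif24 and Nedd9 stay at 0.69 or above under all 3, whereas Ttbk2 and Kif2a come close to 0 with the length trend removed.

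Levels were compared between genes as RPKM, the TMM-scaled CPM per kilobase of exon. In competent cells Nedd9 was highest at 15.4 ± 0.366 RPKM (SD, n = 3), followed by Plk1 at 11.9 ± 0.564 and Kif2a at 8.77 ± 0.41 RPKM. Hdac6 (7.82 ± 0.148 RPKM), Nek2 (7.31 ± 0.592) and Aurka (7.27 ± 0.422) formed a run in which each overlapped the next in its samples. The genes of the cap were the lowest: Ttbk2 was at 2.12 ± 0.215, Ccp110 at 1.38 ± 0.111, Kif24 at 0.65 ± 0.0571 and Cep97 at 0.413 ± 0.0254 RPKM, with no overlap between neighbours. In depleted cells Nedd9 stood at 27.9 ± 1.01 RPKM, more than any other of the 10, and Aurka (9.15 ± 0.576) moved ahead of Hdac6 (7.86 ± 0.438) and Nek2 (6.41 ± 0.45). Kif24 (1.2 ± 0.0486 RPKM) and Cep97 (0.816 ± 0.0292 RPKM) remained the lowest in depleted cells.

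**Figure D3:**
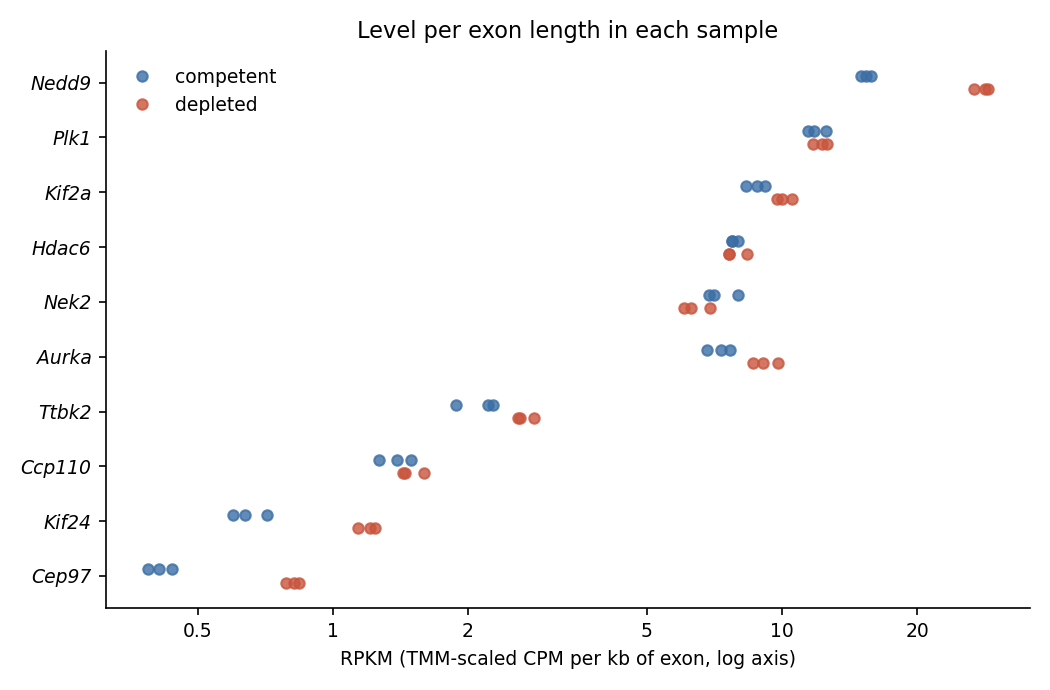
RPKM of each gene on a log axis in the 3 competent (blue) and 3 depleted (red) samples, ordered by the competent mean. Cep97 and Kif24 are at the bottom in both groups, and Aurka passes Nek2 and Hdac6 in depleted cells.

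Genes acting at the same steps were read in 7 lists, to be set beside the 34.9% higher, 34.3% lower and median of -0.0057 over all genes. Of 14 genes that act with Aurora A, 10 were called higher, 2 lower and 2 in neither direction; their median log2 change was 0.23. With the length trend removed 7 rose, 3 fell and the median was 0.15, and it was 0.10 with library-size scaling. Dvl2, a Wnt transducer that helps to stabilise NEDD9, rose 2.35-fold, from 17.2 ± 0.977 to 40.3 ± 0.328 CPM (SD, n = 3 each, adjusted p = 5.67e-10), with 18.3% of its exon length under Acadvl on the opposite strand. Tchp, which encodes trichoplein, an activator of Aurora A at the centriole, rose 2.21-fold from 20.9 ± 0.603 to 46.2 ± 2.31 CPM. Kctd17, the adaptor of the ubiquitin ligase that removes trichoplein, fell from 34.2 ± 3.31 to 18.0 ± 1.15 CPM, a log2 change of -0.92. Bora, a cofactor through which Aurora A activates PLK1, rose 1.85-fold to 6.51 ± 0.352 CPM. The Aurora A activator gene Tpx2 rose 1.27-fold and the trichoplein stabiliser gene Ndel1 1.44-fold, while its relative Nde1, a suppressor of ciliation, fell (log2 change -0.45). Tchp rose and Kctd17 fell at the RNA level, each without overlap between groups, as held for 72.5% of all genes. Whether these changes are related was not tested.

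Of 15 genes for partners of CP110 and for its turnover, 9 were called higher, 4 lower and 2 in neither direction; their median log2 change was 0.16. With plain library-size scaling 5 were called higher and the median was 0.04, and with the length trend removed 6 were, at a median of 0.05. Cetn2, which encodes a centrin of the centriole lumen, fell from 44.2 ± 0.704 to 20.7 ± 0.692 CPM, a log2 change of -1.09 (adjusted p = 6.88e-10). Mphosph9, which helps to place the cap complex on the centriole, rose 1.64-fold from 15.3 ± 1.31 to 25.1 ± 0.763 CPM. Cep290, a transition zone gene whose product binds CP110, rose 1.75-fold, and Dcaf1, a substrate receptor of ubiquitin ligases, rose 1.47-fold. Ccnf, which encodes the F-box protein that targets CP110 for degradation, had a log2 change of -0.19 (adjusted p = 0.049), a call that was lost under 11 of 15 alternatives, DESeq2 (adjusted p = 0.121) and each left-out sample among them. Usp33, which encodes the enzyme that opposes it, had a log2 change of 0.16 (adjusted p = 0.00346), a call lost with library-size scaling (0.04) and with the length trend removed (0.05), and 24.4% of its exon length lies under genes on the opposite strand.

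Distal appendages anchor the mother centriole to the membrane and bring in TTBK2. Of 8 genes of these appendages and of docking, 7 were called higher, 0 lower and 1 in neither direction. Their median log2 change was 0.39 (0.32 with the length trend removed, when 6 rose). With library-size scaling 5 rose and the median was 0.26. Sclt1 rose 1.63-fold from 3.79 ± 0.253 to 6.23 ± 0.9 CPM and Ankrd26 1.62-fold from 9.28 ± 1.13 to 15.1 ± 0.577 CPM. Odf2 and Fbf1 rose 1.38-fold and 1.37-fold. Cep164, whose product recruits TTBK2, was called 1.14-fold higher, but not with library-size scaling (log2 change 0.06) or with the length trend removed (-0.02). Cep83, which starts appendage assembly, was not called, at a log2 change of 0.05 (adjusted p = 0.445).

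Of 10 genes of microtubule depolymerisation and tubulin acetylation, 2 were called higher, 4 lower and 4 in neither direction; their median log2 change was 0.04. With the length trend removed 4 rose and the median was 0.14, and it was -0.09 with library-size scaling. The number that rose was also 4 without competent replicate 2 or without depleted replicate 3. Kif18b and Kif18a, which encode kinesins that limit microtubule length in mitosis, rose 1.99-fold and 1.76-fold, to 26.4 ± 0.236 and 11.7 ± 0.492 CPM. Stmn1, which encodes the tubulin-binding protein stathmin, and Mapre1, which encodes the plus-end protein EB1, fell (log2 changes -0.62 and -0.43). Atat1, the tubulin acetyltransferase gene that opposes HDAC6, was called lower (log2 change -0.29, adjusted p = 0.007), but not with the length trend removed (-0.15), and 14.0% of its exon length lies under an opposite-strand gene. Sirt2, which encodes another tubulin deacetylase, was not called, at a log2 change of 0.01 (adjusted p = 0.854), but was called higher with the length trend removed (0.14). The HDAC6 substrate gene Cttn fell slightly (log2 change -0.19).

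Relatives of the 10 genes moved in both directions. Of 17 listed, 4 (Aurkc, Cass4, Efs and Kif2b) had at most 2 counts in a sample and were not tested, and of the other 13, 6 were called higher, 3 lower and 4 in neither direction. Their median log2 change was 0.14, or 0.04 with the length trend removed and 0.01 with library-size scaling. The stress-responsive polo-like kinase gene Plk3 had 9.07, 9.62 and 8.84 CPM in competent and 64.3, 60.7 and 63.7 CPM in depleted samples, a rise of 6.85-fold (adjusted p = 1.78e-13), whereas Plk1 did not pass. Plk4, which drives centriole duplication, was not called either, at a log2 change of -0.06 (adjusted p = 0.396; -0.19 and called lower with library-size scaling), and Plk2 rose 3.45-fold. Bcar1, the NEDD9 relative that encodes p130Cas, rose 1.84-fold from 394 ± 3.39 to 726 ± 13.5 CPM, and Nek1 rose 1.62-fold. Aurkb, which encodes the Aurora kinase of chromosome segregation, was called lower (log2 change -0.22, adjusted p = 0.0172), a call lost with the length trend removed (-0.05), without depleted replicate 1 (-0.19) and without depleted replicate 3 (-0.20). The other relatives called lower, of the NEK family, had log2 changes of -0.38 and -0.26 (adjusted p = 1.79e-06 and 0.000115). Besides Nek1, a further NEK relative was called higher, at 0.14. The KIF2A relative gene Kif2c was not called, at a log2 change of 0.29 (adjusted p = 0.0866). It was called higher without competent replicate 2 (0.41), without depleted replicate 3 (0.43), without a filter on low counts (0.28) and with the replicate block (0.28).

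NEDD9 is a docking protein of integrin signalling as well as of the cilium. Of 11 genes for its signalling partners, 6 were called higher, 4 lower and 1 in neither direction. Their median log2 change was 0.41. It was 0.30 with the length trend removed and 0.28 with library-size scaling, and under each of these 6 rose and 5 fell. Sh2d3c and Bcar3, which encode related adaptors that bind NEDD9 and p130Cas, rose 2.98-fold (from 3.60 ± 0.251 to 10.7 ± 0.472 CPM) and 1.59-fold. The adaptor gene Crkl rose 1.46-fold and the kinase gene Src 1.33-fold, while Crk, Fyn and the focal adhesion kinase gene Ptk2 fell, with log2 changes of -0.25, -0.23 and -0.31. Bcar1 also stands in this list.

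Aurka, Plk1 and Nek2 are transcribed mainly in the G2 phase and mitosis, so other genes of that phase were read beside them. Of 18, 6 were called higher, 5 lower and 7 in neither direction; their median log2 change was 0.09, which was -0.02 with the length trend removed. With plain library-size scaling 2 rose, 7 fell and the median was -0.04. Mki67, a proliferation marker with a long transcript, had 68.4 ± 11.3 CPM in competent and 118 ± 7.32 CPM in depleted cells (1.72-fold), and Cdc25c, which encodes a phosphatase that activates the mitotic kinase CDK1, rose 1.46-fold. The cyclin genes Ccnb2 and Ccnb1 fell (log2 changes -0.50 and -0.39), as did Cdk1 (-0.30) and Ube2c (-0.40), which encodes a ubiquitin enzyme of mitotic exit and has 22.8% of its exon length under a gene on the opposite strand. The other phase genes called higher had log2 changes of 0.21 to 0.30. The remaining gene called lower was at -0.34. The phase genes thus had no common direction, and the changes of Aurka (0.33), Plk1 (0.04) and Nek2 (-0.19) lay inside their range of -0.50 to 0.79. Most genes tested lay inside that range too. Ordered by log2 change, Ccnb2 stood at place 2257 from the bottom of 13839 and Mki67 at place 1629 from the top. A place inside the range therefore tells little about whether Aurka, Plk1 and Nek2 followed the phase genes.

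**Figure D4:**
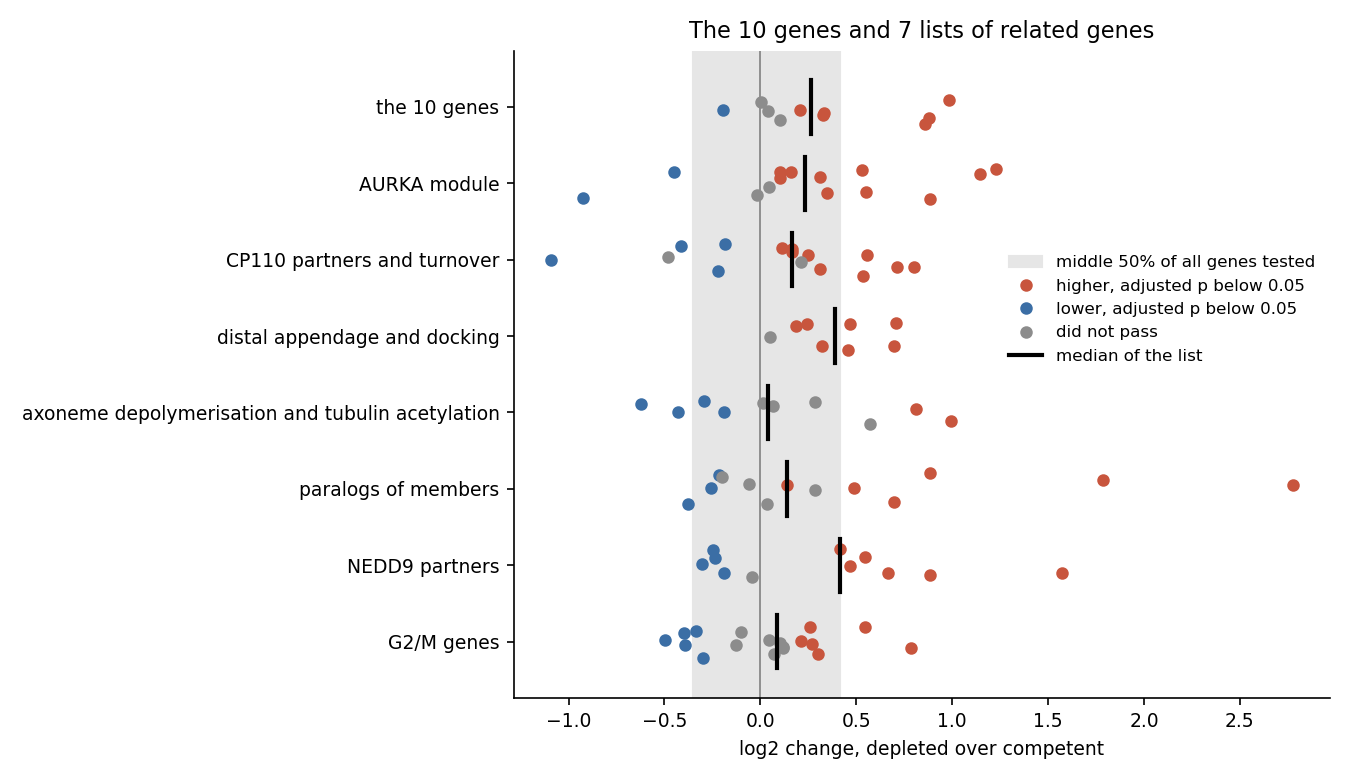
Log2 change (depleted over competent) of the 10 genes and of the members of 7 related lists, coloured by call (adjusted p below 0.05), with each list's median as a black bar and the interquartile range of all genes in grey. Distal appendage genes all lie above 0, G2/M genes spread on both sides, and Plk3 and Plk2 are the 2 points farthest to the right.

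Over the 6 samples, the genes with the pattern most like Cep97, the gene with the largest rise, were Btbd19, Tiam2 and Ccnt2, with Pearson correlations of log2 CPM of 0.9997, 0.9996 and 0.9996 among 10468 genes searched. For Nek2, the 1 gene called lower, they were Mob1b, Smc2 and Trub1, at 0.9891, 0.984 and 0.9829. These are descriptions over samples that share libraries and fall into separate groups, where any gene with a clean group difference correlates with any other.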

How the data were processed

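The authors deposited raw counts per gene in 1 table. The aligner STAR 2.7.1a, the counter featureCounts, cutadapt 1.16, DESeq2 1.34.0, FastQC 0.11.9, MultiQC 1.3 and build GRCm38 are listed in the submitters' processing notes. Which annotation and strand option the counter used is not given in the sources used here. Columns named WT and KO were taken as competent and depleted, by group and replicate number; 0 columns belonged to other samples. Symbols, coordinates and lengths came from GENCODE M21 (32009 identifiers matched).

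The test was edgeR 4.0.16 under R 4.3.3: filterByExpr, TMM scaling (factors 0.954 to 1.06), glmQLFit and glmQLFTest with group as the only term over all 6 samples, two-sided, threshold 0.05. The common biological coefficient of variation was 5.2%. Replicates differed by more than sampling noise (chi-square per degree of freedom 5.33 to 9.44). To remove the length trend, a loess curve per library against the longest transcript was used as an offset. The code was tested on simulated counts.

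The 10 genes and the lists were chosen with earlier results of these data known. From each list the text names up to 4 called genes with the largest change; other list genes were named after their values were seen. The gene most like a member was sought for the largest called rise and fall, among genes with a mean log2 CPM of at least 2. DESeq2 1.42.0, limma-voom (limma 3.58.1), other scalings and filters, a replicate block and leaving out each sample were alternatives. For the lists and ratios they were chosen after the data were seen. A floor of 3 counts was 0.0796 to 0.119 CPM and covers counting error only.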

Additional observations from a re-analysis of the deposited data

How the results depend on the processing

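Under the alternatives, 142 of 150 values of the 10 genes kept their side of the threshold and 138 their direction. For the 27 list genes named by the rule all 405 values kept both. The rule had picked called genes with the largest changes in these same data, so this outcome was nearly fixed by the choice. For the 19 list genes named after their values were seen, 260 of 285 kept their side and 276 their direction; 11 of the values that changed side were those of Ccnf. With the length trend removed, values below 0 replaced values above it for Ttbk2 (-0.0017), Hdac6 (-0.16), Ccp110 (-0.13), Cep164 (-0.02) and Cep83 (-0.05). Plk1 was then called higher, Kif2a was not called, and 2 of the 10 genes were called lower in place of 1 (5 higher in place of 6). The same turn occurred with library-size scaling for Hdac6 (-0.12), Plk1 (-0.09), Ccp110 (-0.03), Cep83 (-0.08) and Sirt2 (-0.12), and with upper-quartile scaling for Hdac6 (-0.05), Plk1 (-0.01), Cep83 (-0.0023) and Sirt2 (-0.04). Hdac6 was at -0.0032 without a filter on low counts. Leaving out 1 sample at a time gave -0.04 to 0.03 for Hdac6, -0.02 to 0.06 for Sirt2, and 0 to 1 of the 10 genes called lower. Of the values that changed sign, Hdac6 with the length trend removed was the one called; the cause was not tested. At an adjusted p below 0.01, 0 of the 10 were called lower. Plain library-size scaling moved the median log2 change of all genes to -0.135, and under it 5 genes of CP110 partners and turnover and 2 G2/M genes were called higher. In the list of depolymerisation and acetylation, 4 rose without a filter on low counts and 4 with the length trend removed, and 2 to 4 when 1 sample was left out. Same-numbered samples did not deviate together (correlations -0.00877 to 0.0321, beside -0.18 to 0.168 over all pairs), and 0 of 3 competent samples were closest to their own number. With 3 samples in each group, this check cannot exclude that same-numbered samples share a culture or an animal. With the replicate block 6 of the 10 genes were called higher and 1 lower, and 4828 and 4698 over all genes.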
